A study of Mus musculus with 15 samples.

Results

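The 10 genes described here encode parts of the autophagy machinery: Map1lc3a, Map1lc3b, Sqstm1, Ulk1, Gabarapl1, Bnip3, Tfeb, Atg7, Becn1 and Wipi1. They were taken by gene symbol from a table of read counts, and each symbol was found once among 23589 loci that carry a gene name, of 33603 loci in the table. Male C57BL/6 mice on 3 diets gave RNA from 5 tissues, namely the liver, colon, epididymal fat, hippocampus and hypothalamus. Mice of the AL group were fed ad libitum and killed at 5 months of age. Mice of the DR group were placed on 40% dietary restriction at 4 months of age, kept on it for 1 month and also killed at 5 months. Mice of the DR-AL group had the same month of DR, returned to AL feeding and were killed at 7 months, so that the return to AL feeding and the older age cannot be told apart. For each tissue and diet, RNA of 5 mice was pooled into 1 strand-specific library sequenced without ribosomal RNA, which gave 15 libraries. The labels name no transgene or deletion, and the study describes its colon tissue as mucosa. The question was whether the transcripts of these genes differed between the libraries after 1 month of DR, and whether a difference remained after the return to AL feeding.

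In autophagy, a double membrane closes around cytoplasm or organelles and delivers them to the lysosome for breakdown and reuse. The ULK kinase complex starts the process when nutrients are short, a phosphatidylinositol 3-kinase complex with beclin 1 marks the growing membrane, and a conjugation system attaches proteins of the LC3 and GABARAP families to its lipids. Cargo receptors link the material to be degraded to these proteins, and the transcription factor TFEB drives genes of autophagy and of the lysosome. The pathway is known for its response to fasting in the liver, and the level of a transcript does not measure autophagic flux.

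Between 21767088 and 40500130 counts per library fell on named loci (median 26554699), and levels are given as CPM, the counts of a gene scaled to a common total of these. Within a tissue, 2 libraries were compared by the Z test of the study's methods, which uses counting error alone. A gene was called higher or lower at a Benjamini-Hochberg adjusted p under 0.05 over all genes tested in the tissue and an absolute log2 ratio of at least 0.32, as for 5 counts against 4. Each group held 1 library. There is thus no check by replicates for any difference, the test sets library against library rather than diet against diet, and the 95% intervals (exact Clopper-Pearson) cover counting error only. The 3 comparisons of a tissue share their libraries and are not independent of each other. In bulk tissue, fewer cells of a type and less RNA per cell cannot be told apart. The members had between 166 and 25130 counts in a library, and all 10 passed the minimum of 1 count over the 3 libraries in every tissue.

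The libraries were checked against marker genes of their tissues. Liver markers summed to between 46054 and 50953 CPM in the 3 liver libraries, although Alb, the gene of albumin and a defining liver marker, was listed at 0 in all 15 libraries. Markers of the colon epithelium summed to between 29228 and 29493 CPM in the colon libraries. Markers of the hypothalamus summed to 1011, 782 and 740 CPM in the AL, DR and DR-AL libraries of that region, where markers of telencephalic excitatory neurons were at 12.2, 66.6 and 50.5 CPM, against 1775 to 1985 CPM in the hippocampus.

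The epididymal fat libraries stood apart in their makeup. Adipocyte markers were at 39046, 32470 and 26537 CPM in the AL, DR and DR-AL libraries. Markers of testis germ cells were at 3.47, 497 and 2489 CPM, those of the epididymis at 919, 3317 and 5260 CPM and those of the liver at 5856, 50.2 and 8.77 CPM. Smooth muscle markers were at 1094, 3310 and 1005 CPM, macrophage markers at 271, 384 and 345 CPM and blood markers at 355, 172 and 212 CPM. The part of these other tissues in any difference in fat was not tested. The choice of scaling also mattered there: the median log2 fold change of 17306 genes in fat was 0.24, 0.34 and 0.24 for DR over AL, DR-AL over AL and DR-AL over DR with totals of named loci, and -0.45, -1.18 and -0.58 with the deposited FPKM values. Outside fat both medians lay within 0.13 of 0.

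The members lie on 7 chromosomes of GRCm38. Map1lc3a is at chr2:155276297-155278073 on the plus strand and Map1lc3b at chr8:121590361-121598760, also on the plus strand. Sqstm1 (chr11:50199366-50210827), Becn1 (chr11:101285952-101302286) and Wipi1 (chr11:109573331-109611967) are on the minus strand of 1 chromosome. Ulk1 (chr5:110784488-110810097) and Bnip3 (chr7:138890836-138909519) are on the minus strand as well. Gabarapl1 (chr6:129533160-129542346), Atg7 (chr6:114643097-114860614) and Tfeb (chr17:47737030-47792419) are on the plus strand. These are gene bounds of GENCODE M21, since the positions in the deposited table are not those of this build. The table's locus of Sqstm1 spans 3.15 times the length of the annotated gene, that of Atg7 1.5 times and that of Becn1 1.41 times. Named loci on the opposite strand overlap 4 members: 3010026O09Rik overlaps Sqstm1, 1700101I11Rik overlaps Gabarapl1, Vgll4 overlaps Atg7 and Cntd1 overlaps Becn1. The reads were aligned with regard to strand according to the methods, while the strand setting of the counting is not given in the sources used here.

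Promoter windows of RefSeq on GRCm38.p6 were found for 8 of the 10 members. They were searched on both strands for the letters CACGTG, an E-box that is the palindromic core of sites bound by TFEB and its relatives. Of 32851 mouse windows of 250 bases before a start, 6.02% hold this E-box. The letters GCGTG and the letters ACGTG, cores bound by hypoxia-inducible factors, are held by 28.2% and 16.6% of the windows, and the second of them is contained in the E-box. The letters GTAAACA, the core bound by FOXO factors, are held by 3.17% of the windows and by no window of a member. The E-box was found in the windows of Bnip3 and Atg7. Bnip3 is shown because its direction differed between tissues, and its window holds 1 E-box and 3 matches to the first hypoxia core. Map1lc3b is shown for its 4 matches to that core in the bases printed, and Atg7 for the other E-box. Capitals mark the E-box and the first hypoxia core on either strand, and bases of annotated exons were left out. Bnip3 is given from chr7:138909520-138909756 on the minus strand, Map1lc3b from chr8:121590188-121590360 on the plus strand and Atg7 from chr6:114670846-114671095 on the plus strand, which lies inside the bounds of the GENCODE gene.
Bnip3: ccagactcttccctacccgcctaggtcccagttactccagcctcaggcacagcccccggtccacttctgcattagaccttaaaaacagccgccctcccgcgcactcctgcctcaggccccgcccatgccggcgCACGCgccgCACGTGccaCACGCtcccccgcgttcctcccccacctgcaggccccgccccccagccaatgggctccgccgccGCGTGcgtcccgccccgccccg
Map1lc3b: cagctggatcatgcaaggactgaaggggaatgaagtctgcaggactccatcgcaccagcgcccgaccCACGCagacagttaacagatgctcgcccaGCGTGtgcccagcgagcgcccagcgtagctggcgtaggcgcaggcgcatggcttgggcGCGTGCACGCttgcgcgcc
Atg7: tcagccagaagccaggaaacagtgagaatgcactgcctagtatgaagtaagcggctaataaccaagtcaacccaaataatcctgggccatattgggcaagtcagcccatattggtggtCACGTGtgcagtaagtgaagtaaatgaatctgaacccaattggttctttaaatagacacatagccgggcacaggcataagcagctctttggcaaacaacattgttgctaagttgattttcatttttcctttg
A match describes these letters and is no measurement of binding.

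Between the DR and AL libraries, Map1lc3a was lower in the liver, fat and colon, Sqstm1 in the liver, Map1lc3b and Gabarapl1 in the colon and Bnip3 in fat, while Tfeb was higher in the liver, a difference that fell under the log2 ratio of 0.32 with FPKM. Tfeb and Wipi1 were also called higher in fat with totals of named loci, a direction that turned with FPKM. Both of these calls in fat were lost with DESeq size factors. In all, 10 of 50 combinations of member and tissue (20%) were called, 3 higher and 7 lower, beside 21.1% of all genes tested and 23.9% of well-covered genes, those that averaged 100 counts or more over the libraries of the tissue. Among all genes 13.9% were higher and 7.23% lower. The share of members called was thus near that of all genes. With DESeq size factors the members' calls were 1 higher and 14 lower, beside 11.2% and 9.29% of all genes. In the liver these also held Map1lc3b, Gabarapl1, Bnip3 and Wipi1 lower, and all of these but Wipi1 passed the log2 ratio with FPKM too. With FPKM and a pseudocount of 1, for which the log2 ratio of 0.32 was the only criterion and no test was made, 0 were higher and 18 lower, beside 7.02% and 14.4% of all genes. Fat held 10 of the 18, where 44.0% of all genes were lower with FPKM. The median log2 fold change of the members was -0.25 in the liver, -0.13 in fat and -0.17 in the colon, where well-covered genes had medians of 0.05, 0.20 and 0.03. By tissue, 3 members were called in the liver, 4 in fat and 3 in the colon, where 28.0%, 45.6% and 19.7% of all genes were called. No member was called in the hypothalamus or hippocampus, with 7.06% and 4.04% of all genes.

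Between the DR-AL and DR libraries, Map1lc3a, Sqstm1 and Gabarapl1 were higher in the liver and colon, and in fat with totals of named loci but not with FPKM. Map1lc3b was higher in the liver, Bnip3 was higher in the liver and lower in the colon, and Ulk1, Tfeb and Atg7 were lower in the liver. In fat Tfeb was lower, and Bnip3 was called higher with totals, a direction that turned with FPKM. With FPKM the calls of Map1lc3a and Bnip3 in the colon and of Atg7 in the liver were lost, that of Bnip3 only with a pseudocount of 1. DESeq size factors lost the calls of Atg7 in the liver and Bnip3 in fat, and added Becn1 higher in the liver and Wipi1 lower in fat. Of the 50 combinations 17 (34.0%) were called, 12 higher and 5 lower, beside 24.5% of all genes (14.0% higher and 10.4% lower) and 27.5% of well-covered genes. With DESeq size factors the split was also 12 higher and 5 lower, beside 13.5% and 10.6% of all genes. With FPKM the split turned to 7 higher and 10 lower, beside 8.30% and 15% of all genes, since in fat 0 members were higher and 8 lower. Of all genes in fat, 9.56% were higher and 44.9% lower with FPKM. The liver held 8 of the 17, or 80.0% of its members, beside 40.9% of all genes and 56.1% of well-covered genes. Fat held 5 and the colon 4, where 51.6% and 14.5% of all genes were called. The median log2 fold change of the members was 0.30 in the liver, 0.22 in fat and 0.14 in the colon, beside -0.07, 0.16 and -0.02 for well-covered genes. The hypothalamus and hippocampus held no called member, with backgrounds of 9.62% and 4.89%.

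Between the DR-AL and AL libraries, the liver held Map1lc3a and Bnip3 higher and Ulk1, Tfeb, Atg7 and Wipi1 lower. Bnip3 was lower in the colon and Tfeb higher in the hypothalamus, calls that were lost with FPKM, that of Tfeb only with a pseudocount of 1. In fat Bnip3 was lower, and Sqstm1, Gabarapl1 and Becn1 were called higher with totals of named loci and were lower with FPKM. DESeq size factors lost the fat calls of Sqstm1, Gabarapl1 and Becn1. The calls came to 12 of 50 (24.0%), 6 higher and 6 lower, beside 25.4% of all genes (15.9% higher and 9.44% lower) and 28.6% of well-covered genes. With DESeq size factors they were 3 higher and 9 lower, beside 13.7% and 11.7% of all genes, and with FPKM 3 higher and 14 lower, beside 8.91% and 17.5%. Fat held 10 of the 14, where 57.5% of all genes were lower with FPKM. By tissue, the liver held 6 of the calls with totals, fat 4, the colon 1, the hypothalamus 1 and the hippocampus 0, where 30.9%, 57.9%, 14.4%, 15.1% and 6.17% of all genes were called.

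The calls rest on counting error. With a negative binomial exact test of edgeR and variation between pools set at 0.1 of the level, 1 combination was called for DR against AL (Bnip3 in fat), 8 for DR-AL against DR and 1 for DR-AL against AL (Sqstm1 in fat), beside 8.92%, 13.0% and 12.6% of all genes. This test used library totals. For DR-AL against AL in fat, the Z test with DESeq size factors did not call Sqstm1, which was lower with FPKM. The 8 included Map1lc3a, Sqstm1, Bnip3, Ulk1 and Tfeb in the liver. With a dispersion estimated from the libraries of each tissue the same test called 0 members in every comparison, beside 0.544%, 0.907% and 1.84% of all genes.

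**Figure D1:**
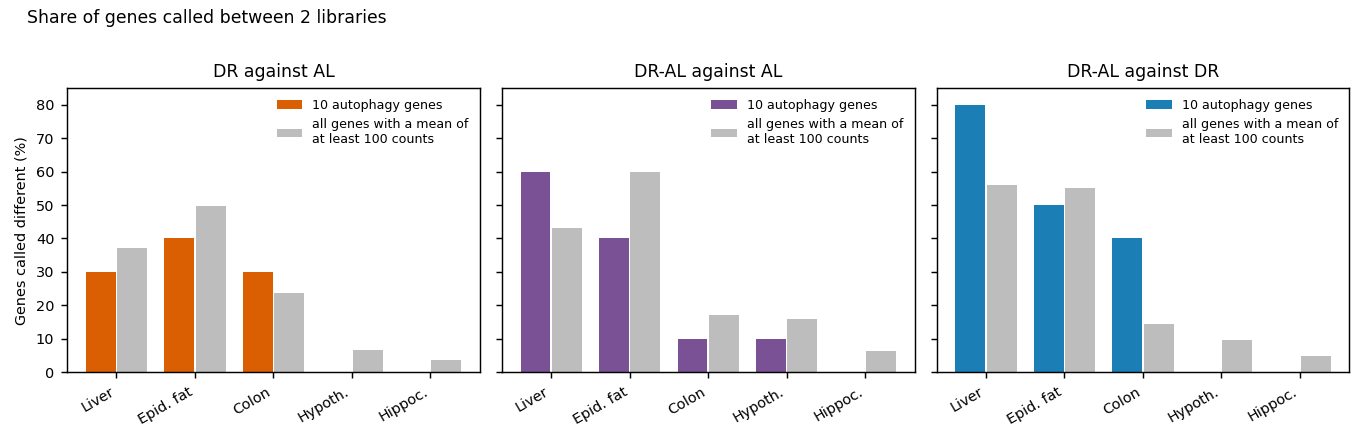
Percentage of the 10 autophagy genes (coloured bars) and of well-covered genes (grey bars, averaging 100 counts or more) called between 2 libraries of each tissue, 1 panel per comparison. In the liver 80.0% of the members were called for DR-AL against DR beside 56.1% of the genes, and no member was called in the brain regions for DR against AL or DR-AL against DR.

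Over the 5 tissues, no member passed a test. The quasi-likelihood test of edgeR over all 15 libraries, with tissue as a term, called 0 of the 10 members in each of the 3 comparisons. Of 17476 genes it called 0.0114% for DR against AL, 0.0114% for DR-AL against DR and 0.00572% for DR-AL against AL. At an unadjusted p under 0.05 it found 1, 2 and 0 members in that order. DESeq2 also called 0 members, with 4, 3 and 1 at an unadjusted p under 0.05, beside calls of 0.120%, 0.104% and 0.106% of all genes. Map1lc3a had the lowest unadjusted p of the members for DR against AL and for DR-AL against DR, with edgeR log2 fold changes of -0.39 (adjusted p = 1.0) and 0.44 (adjusted p = 0.976). It was lower in DR than in AL in 4 of 5 tissues and with totals higher in DR-AL than in DR in 5 of 5, of which fat turned with FPKM (-0.34). Sqstm1 followed for DR-AL against DR, with a log2 fold change of 0.30 (edgeR adjusted p = 0.976) and a higher value with totals in 4 of 5 tissues, of which fat again turned with FPKM (-0.27). The tissues of a diet share their mice, so the 5 tissues do not stand for 5 animals.

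Whether the diet differences of the liver, fat and colon differed from those of the hypothalamus and hippocampus was tested in a separate fit. This edgeR model added terms for these differences and covered 18569 genes. The edgeR test called 0 of the 10 members in each comparison, with none at an unadjusted p under 0.05, beside 0.00% of all genes for DR against AL, 0.00% for DR-AL against DR and 0.108% for DR-AL against AL. The smaller number of calls in the brain regions was therefore not shown to be a difference between tissues. For Map1lc3a, DR against AL, the difference between the peripheral tissues and the brain regions was -0.51 on the log2 scale (edgeR adjusted p = 1.0).

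**Figure D2:**
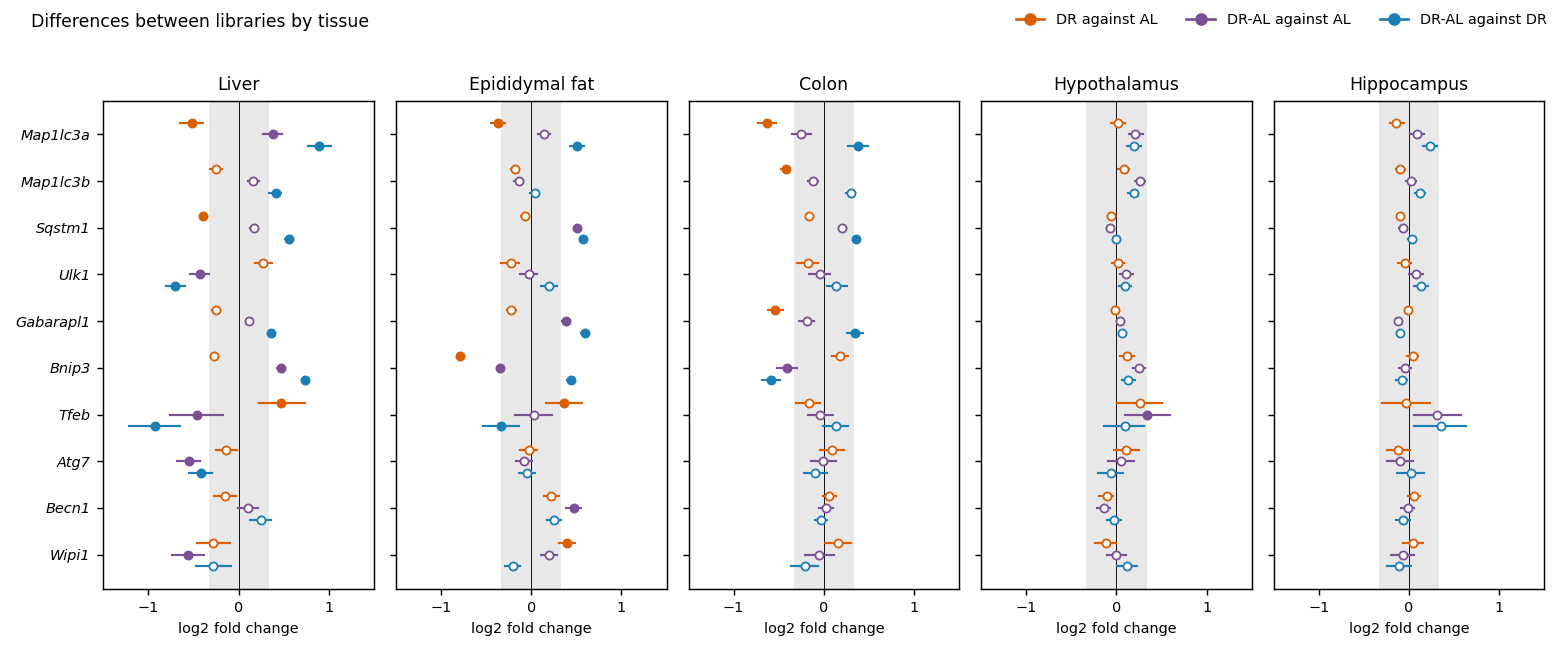
Log2 fold change of each member in each tissue for the 3 comparisons, from counts scaled to totals of named loci with a pseudocount of 0.5. Lines are exact 95% intervals of counting error, filled points were called, open points were not, and the grey band marks log2 ratios under 0.32. Map1lc3a lies left of 0 for DR against AL in the liver (-0.52), fat (-0.37) and colon (-0.63), and in fat the direction of 9 called differences turned with FPKM.

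Map1lc3a encodes an LC3 protein that is conjugated to the lipid of the autophagosome membrane. In the liver it was at 51.8 CPM in the AL library, 36.2 CPM in the DR library and 67.2 CPM in the DR-AL library, so that the DR library was the lowest and the DR-AL library the highest. The log2 fold changes were -0.52 (95% interval -0.65 to -0.39) for DR against AL, 0.38 (0.27 to 0.48) for DR-AL against AL and 0.89 (0.77 to 1.02) for DR-AL against DR, all 3 called. In the colon its levels were 65.7, 42.5 and 55.4 CPM in the same order, with the DR library again the lowest. There the log2 fold changes were -0.63 (-0.73 to -0.53) for DR against AL and 0.38 (0.27 to 0.49) for DR-AL against DR, both called, and -0.25 (-0.35 to -0.14) for DR-AL against AL, not called. With FPKM the colon difference between DR-AL and DR was 0.27, under the log2 ratio of 0.32. The levels in fat were 131, 102 and 145 CPM. The fat difference of -0.37 (-0.45 to -0.29) for DR against AL was called, and that of 0.51 (0.43 to 0.58) for DR-AL against DR was called with totals and was -0.34 with FPKM and a pseudocount of 1. In the hypothalamus (94.6, 95.8 and 110 CPM) and hippocampus (85.4, 77.5 and 90.9 CPM) the values lay closer together and no difference was called.

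Map1lc3b, the gene of the LC3 protein most used to follow autophagosomes, had its lowest level in the DR library in 4 of 5 tissues with totals. With FPKM it was lowest in the DR library of the liver and colon, the DR-AL library of fat and the AL library of the hypothalamus and hippocampus. Its levels in the AL, DR and DR-AL libraries were 169, 142 and 188 CPM in the liver and 242, 180 and 222 CPM in the colon. The calls were 0.41 (95% interval 0.34 to 0.47) for DR-AL against DR in the liver and -0.42 (-0.47 to -0.37) for DR against AL in the colon. The liver difference between DR and AL, -0.25 (-0.32 to -0.18), and the colon difference between DR-AL and DR, 0.30 (0.25 to 0.35), had intervals that leave out 0 but stayed under the log2 ratio of 0.32 with totals. The first of them was called lower with DESeq size factors and passed the ratio with FPKM. No fat difference was called with totals at 325, 286 and 294 CPM, but DR and DR-AL were lower than AL with DESeq size factors (-0.37 and -0.48, called) and with FPKM (-0.94 and -1.76). In the hypothalamus the AL library was the lowest, at 129 CPM beside 137 and 155 CPM, and in the hippocampus the levels were 195, 182 and 198 CPM.

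Gabarapl1 encodes a GABARAP protein of the same conjugated family. Its liver levels were 471 CPM in AL, 396 CPM in DR and 510 CPM in DR-AL, and the difference between DR-AL and DR was called at 0.36 (95% interval 0.32 to 0.40). In the colon the levels were 94.6, 65.1 and 82.8 CPM. The colon library of the DR group was the lowest, with called differences of -0.54 (-0.62 to -0.45) from AL and of 0.35 (0.26 to 0.43) between DR-AL and DR. In fat it stood at 286, 246 and 373 CPM, with 0.38 (0.34 to 0.42) for DR-AL against AL and 0.60 (0.55 to 0.64) for DR-AL against DR called with totals, and -1.23 and -0.27 with FPKM. The brain regions showed little spread, with levels between 583 and 607 CPM in the hypothalamus and between 560 and 608 CPM in the hippocampus.

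**Figure D3:**
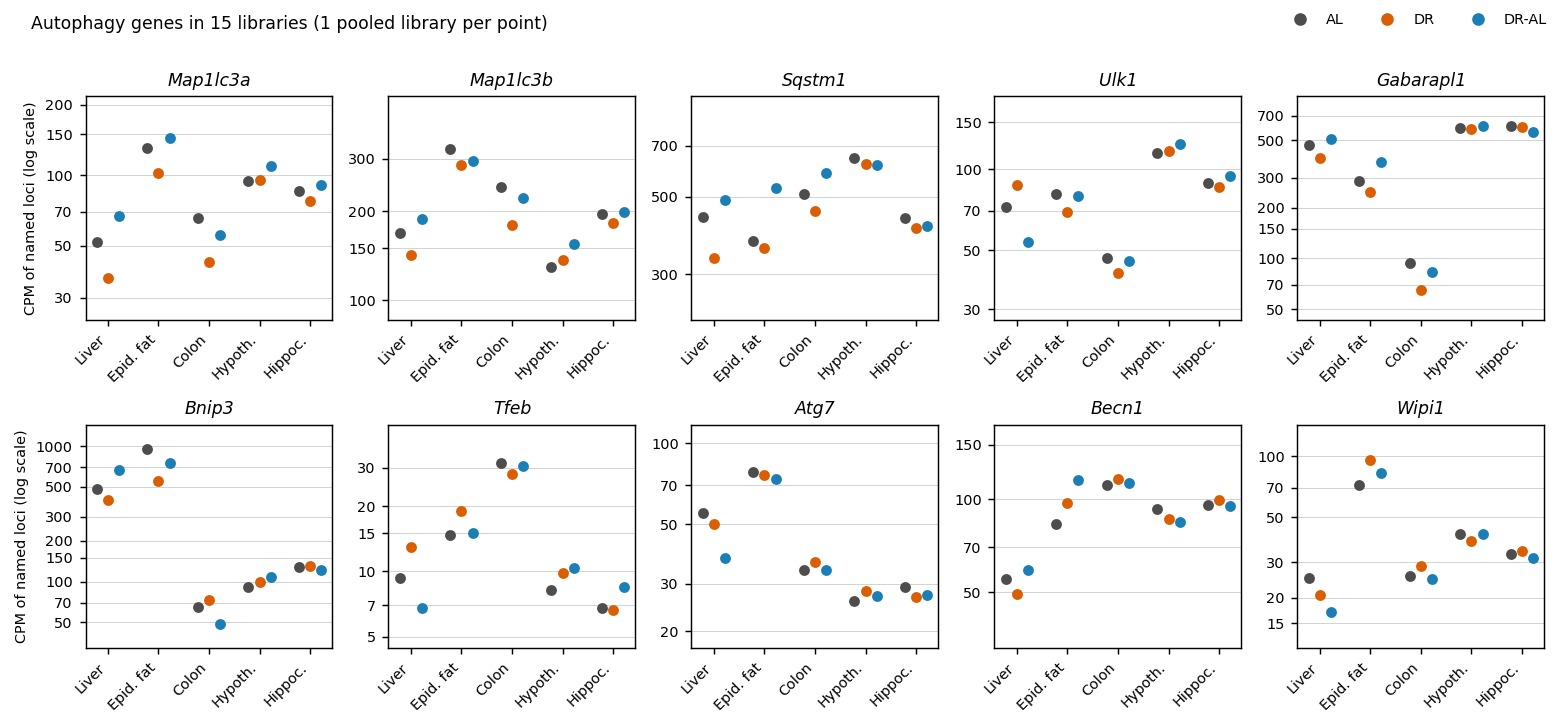
Level of each autophagy gene in the 15 libraries, as CPM of named loci on a log scale, with 1 point per pooled library coloured by diet. Map1lc3a has its DR point below its AL and DR-AL points in the liver (36.2 CPM), fat (102 CPM) and colon (42.5 CPM), while Tfeb has its DR point on top in the liver (13.0 CPM).

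Sqstm1 encodes p62, a receptor that carries ubiquitin-tagged cargo and is itself degraded by autophagy. Its liver levels were 437 CPM in AL, 334 CPM in DR and 490 CPM in DR-AL. The liver library of the DR group was the lowest, with called differences of -0.39 (95% interval -0.43 to -0.35) from AL and of 0.56 (0.51 to 0.60) between DR-AL and DR. In the colon the levels were 508, 455 and 584 CPM, and 0.36 (0.33 to 0.39) for DR-AL against DR was called. In fat they were 374, 357 and 531 CPM, so that the DR-AL library was the highest. The fat differences of 0.51 (0.47 to 0.54) for DR-AL against AL and 0.57 (0.54 to 0.61) for DR-AL against DR were called with totals and were -1.17 and -0.27 with FPKM. No call was made in the hypothalamus (645, 619 and 615 CPM) or hippocampus (435, 406 and 413 CPM), where the AL library was the highest in both with totals. With FPKM the order was different, at 162, 157 and 164 FPKM in the hypothalamus and 162, 165 and 162 FPKM in the hippocampus.

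Bnip3 encodes a receptor in the outer mitochondrial membrane that links mitochondria to LC3 and is a known target of hypoxia-inducible factors. In the liver it was at 480 CPM in AL, 398 CPM in DR and 663 CPM in DR-AL, with 0.47 (95% interval 0.43 to 0.50) for DR-AL against AL and 0.74 (0.70 to 0.77) for DR-AL against DR called. The colon had the opposite order, with 64.4, 72.9 and 48.4 CPM. The DR-AL library of the colon was the lowest, and its differences of -0.41 (-0.52 to -0.30) from AL and -0.59 (-0.69 to -0.49) from DR were called. With FPKM and a pseudocount of 1 they were -0.29 and -0.32, both under the ratio for a call. In fat the levels were 959, 554 and 750 CPM, the largest spread of any member within a tissue on the CPM scale. There -0.79 (-0.82 to -0.76) for DR against AL and -0.35 (-0.38 to -0.33) for DR-AL against AL were called, as was 0.44 (0.40 to 0.47) for DR-AL against DR with totals, which was -0.50 with FPKM. The brain regions gave no call, at 90.9, 98.5 and 108 CPM in the hypothalamus and 127, 130 and 122 CPM in the hippocampus.

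Ulk1 encodes the kinase that starts autophagosome formation. In the liver its order was the reverse of that of the LC3 genes: 72.4 CPM in AL, 87.5 CPM in DR and 53.6 CPM in DR-AL. The DR-AL library was the lowest, with called differences of -0.43 (95% interval -0.54 to -0.33) from AL and -0.71 (-0.81 to -0.60) from DR, and the difference of 0.27 (0.18 to 0.37) between DR and AL stayed under the log2 ratio of 0.32. Outside the liver no difference was called with totals, while in fat DR and DR-AL were called lower than AL with DESeq size factors (-0.42 and -0.37) and were at -0.91 and -1.43 with FPKM. Its levels ran from 69.1 to 81.1 CPM in fat, 41.2 to 46.8 CPM in the colon, 115 to 125 CPM in the hypothalamus and 86.2 to 94.2 CPM in the hippocampus.

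Tfeb, the gene of the transcription factor, had few reads, between 166 and 936 counts in a library, and the widest intervals of the members. In the liver it was at 9.34 CPM in AL, 13.0 CPM in DR and 6.78 CPM in DR-AL, the same order as Ulk1. All 3 liver differences were called, at 0.47 (95% interval 0.22 to 0.73) for DR against AL, -0.46 (-0.76 to -0.17) for DR-AL against AL and -0.93 (-1.22 to -0.65) for DR-AL against DR. The first of them was 0.26 with FPKM, which is no call. In fat its levels were 14.8, 19.0 and 15 CPM. The fat difference of 0.36 (0.16 to 0.56) for DR against AL was called with totals and was -0.42 with FPKM, and that of -0.34 (-0.53 to -0.14) for DR-AL against DR was called. The hypothalamus had 8.22, 9.83 and 10.4 CPM, with 0.34 (0.10 to 0.59) for DR-AL against AL called, the single call of any member in a brain region with totals. With FPKM and a pseudocount of 1 it was 0.28 and not called, while Map1lc3b reached 0.34 there. In the hippocampus (6.81, 6.66 and 8.47 CPM) and colon (31.6, 28.0 and 30.7 CPM) no difference was called.

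Atg7 encodes the activating enzyme of the conjugation system. It differed in the liver, where it was at 55.0 CPM in AL, 50.1 CPM in DR and 37.5 CPM in DR-AL, with -0.55 (95% interval -0.68 to -0.43) for DR-AL against AL and -0.42 (-0.55 to -0.29) for DR-AL against DR called. The second call was lost with DESeq size factors (-0.31) and with FPKM (-0.22). Its levels in the other tissues stayed between 73.9 and 78.2 CPM (fat), 33.7 and 36.1 CPM (colon), 26.0 and 28.2 CPM (hypothalamus) and 26.8 and 29.2 CPM (hippocampus), with no call with totals. In fat the difference between DR-AL and AL was called with DESeq size factors (-0.42) and was -1.5 with FPKM.

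Wipi1 encodes a protein that binds the phosphoinositide of the growing membrane. In the liver it was at 25.1 CPM in AL, 20.6 CPM in DR and 17.0 CPM in DR-AL, and -0.56 (95% interval -0.74 to -0.38) for DR-AL against AL was called. Its fat levels were 72.1, 95.2 and 82.9 CPM, with 0.40 (0.31 to 0.49) for DR against AL called with totals and -0.47 with FPKM. Becn1, the gene of beclin 1, gave 1 call with totals, in fat, where it was at 83.3, 97.1 and 115 CPM and 0.47 (0.39 to 0.55) for DR-AL against AL was called and was -1.10 with FPKM. With DESeq size factors Becn1 lost that call, and its liver difference between DR-AL and DR was called higher. Outside fat its levels ran from 49.6 to 58.9 CPM in the liver, 111 to 116 CPM in the colon, 84.4 to 93.2 CPM in the hypothalamus and 95 to 99.6 CPM in the hippocampus.

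In the liver, the directions of the members were set beside transcript length. Among the well-covered genes there, 94.5% had a length in GENCODE M21. For DR-AL against DR the median log2 fold change was -0.05 in the genes below the first quartile of transcript length and -0.13 in those above the third, and for DR-AL against AL it was 0.06 and -0.12. Relative to the median of the 500 genes nearest in transcript length, the DR-AL to DR difference in the liver was 0.95 for Map1lc3a, 0.66 for Sqstm1 and 0.82 for Bnip3, and -0.58 for Ulk1 and -0.87 for Tfeb. These values keep the directions given above.

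Compared per length, the members differed widely in level within a tissue. On the FPKM scale in the AL library of the liver, Bnip3 (592 FPKM), Gabarapl1 (589 FPKM) and Sqstm1 (497 FPKM) were highest and Tfeb (9.33 FPKM) lowest. Bnip3 also led in fat at 442 FPKM. In the colon Sqstm1 (302 FPKM) and Map1lc3b (171 FPKM) were highest, with Bnip3 at 45 FPKM. Gabarapl1 led in the hypothalamus (179 FPKM) and hippocampus (264 FPKM), followed by Sqstm1 at 162 FPKM in both. Tfeb was the lowest member in 4 tissues, while in the colon, at 16.1 FPKM, it lay above Ulk1 (11.1 FPKM), Atg7 (9.35 FPKM) and Wipi1 (8.37 FPKM).

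**Figure D4:**
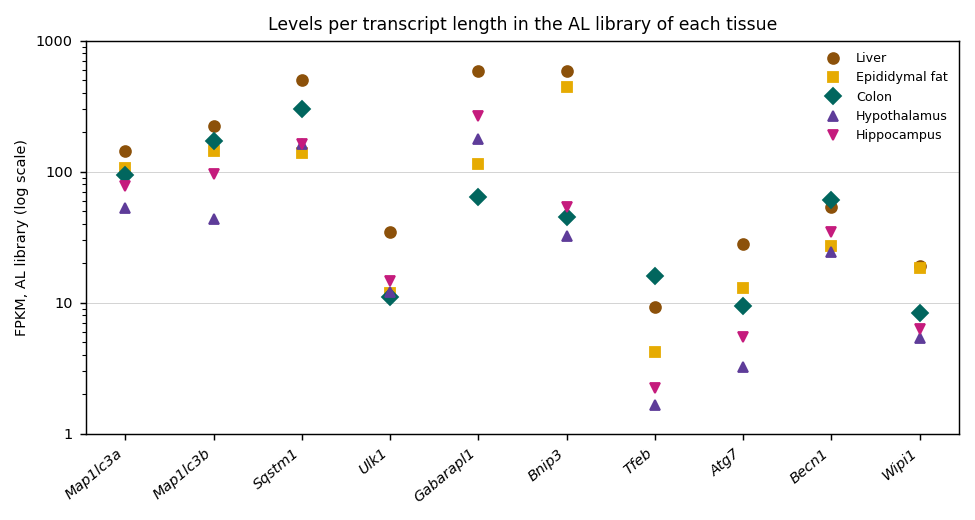
Level of each member in the AL library of each tissue, as deposited FPKM on a log scale, 1 symbol per tissue. Bnip3 ranges from 32.4 FPKM in the hypothalamus to 592 FPKM in the liver, and Tfeb is the lowest member in every tissue except the colon. The scaling of FPKM between libraries is not given, and as CPM Bnip3 ranges from 64.4 in the colon to 959 in fat.

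The tissue of highest level also differed between members. On the CPM scale, with the mean ± SD over the 3 diets (n = 3 libraries), Bnip3 was at 754 ± 202 in fat and 514 ± 136 in the liver, ranges that overlap, and at 126 ± 3.72 in the hippocampus, 99.1 ± 8.57 in the hypothalamus and 61.9 ± 12.4 in the colon, which do not overlap each other. Gabarapl1 was at 594 ± 12.4 in the hypothalamus and 590 ± 25.9 in the hippocampus, which overlap, then at 459 ± 57.5 in the liver, 302 ± 64.4 in fat and 80.8 ± 14.8 in the colon. Ulk1 was highest in the hypothalamus at 119 ± 4.99, and Tfeb was highest in the colon at 30.1 ± 1.85, both above the range of the next tissue. Sqstm1 was at 626 ± 16.3 in the hypothalamus and 516 ± 64.8 in the colon, whose range overlaps that of fat (420 ± 96.2), and fat, liver (420 ± 79.7) and hippocampus (418 ± 15) overlapped each other. Atg7 (76.2 ± 2.16) and Wipi1 (83.4 ± 11.6) were highest in fat, above the range of every other tissue. These orders hold for the CPM scale. With FPKM in the AL libraries the liver led for Ulk1, Gabarapl1, Sqstm1, Bnip3, Atg7 and Wipi1, while Tfeb stayed highest in the colon. Ulk1 was at 34.9 FPKM in the liver and 12.1 FPKM in the hypothalamus. Atg7 was at 28.1 FPKM in the liver and 13.0 FPKM in fat, and Wipi1 at 19.2 and 18.5 FPKM. The fat libraries also carry the markers of other tissues given above.

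A further 67 genes of autophagy and the lysosome were examined in 8 lists by role, and all were tested in every tissue. Over the 5 tissues, 11.9% of their 335 combinations were called for DR against AL, 16.7% for DR-AL against AL and 19.1% for DR-AL against DR, each below the share of all genes given above. The liver had 2 higher and 9 lower for DR against AL, 15 and 14 for DR-AL against AL, and 19 and 10 for DR-AL against DR. Of all genes in the liver, 18.1% were higher and 9.93% lower, 15.1% and 15.8%, and 16.9% and 24.0% in these comparisons. With DESeq size factors the liver counts were 2 and 16, 16 and 12, and 24 and 9, and with FPKM 2 and 17, 10 and 13, and 21 and 10. The FPKM shares of all genes in the liver were 13.7% and 14.5%, 13.6% and 16.7%, and 19.4% and 20.2%. Fat had 15 higher and 5 lower, 16 and 5, and 13 and 9 in the same order, beside 35.3% and 10.4%, 46.1% and 11.9%, and 38.4% and 13.3% of all genes. The colon had 1 and 7, 0 and 3, and 7 and 4, beside 9.05% and 10.6%, 5.84% and 8.51%, and 6.78% and 7.68%, and with FPKM 1 and 6, 4 and 1, and 7 and 1. The hypothalamus had 1 and 0, 1 and 2, and 0 and 1, where 7.06%, 15.1% and 9.62% of all genes were called. The hippocampus had 0 and 0, 0 and 0, and 1 and 0, where 4.04%, 6.17% and 4.89% were called. The fat counts turned with the scaling: with DESeq size factors they were 6 higher and 8 lower, 9 and 22, and 10 and 19 in the 3 comparisons, and with FPKM 1 and 55, 1 and 66, and 0 and 57. The FPKM shares of all genes in fat were 10.3% higher and 44.0% lower, 11.9% and 57.5%, and 9.56% and 44.9%. Shares of all genes by tissue were not taken with DESeq size factors.

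In the liver, 5 of 9 cargo receptors were higher and none lower in DR-AL than in DR. Of well-covered genes 24.0% were higher and 32.1% lower there, 56.1% in all, so that the share of receptors called was near that of these genes. Bnip3l, a mitochondrial receptor related to Bnip3, rose from 91.1 CPM in DR to 165 CPM in DR-AL (log2 fold change 0.86), and Fam134b, a receptor for the endoplasmic reticulum, from 106 to 171 CPM (0.69). Optn, a receptor of ubiquitin-tagged cargo, was at 79.6 CPM in DR and 111 CPM in DR-AL (0.48), Ncoa4, the ferritin receptor, at 167 and 225 CPM (0.43), and Fundc1, a mitochondrial receptor, at 9.42 and 13.7 CPM (0.54). The median of the list was 0.43, beside -0.07 for well-covered genes. Of the 11 genes of the ATG8 family and conjugation 4 were higher and none lower, among them Gabarapl2, at 60.6 and 100 CPM (0.72), and Atg5, a part of the conjugating enzyme, at 51.4 and 78.2 CPM (0.60). Of the 19 lysosome genes 6 were higher, among them Lamp2, a lysosomal membrane protein, at 596 and 1060 CPM (0.83), and Ctsl, a protease, at 757 and 1310 CPM (0.79). A further 3 were lower, among them Mcoln1 (-0.66) and Cln3 (-0.37), which was -0.26 with DESeq size factors and -0.20 with FPKM, under the ratio for a call. Among the transcription factors Foxo3 was lower, at 55.5 CPM in DR and 29.5 CPM in DR-AL (-0.91), as was Foxo1 (-0.49), while Mitf was higher (0.57, and 0.29 with FPKM, which is no call). The other lists did not lean higher. Fusion with the lysosome had 0 higher and 2 lower of 7 genes (median -0.21), and membrane source and transfer 2 and 2 of 7 (median -0.17). The PI3K complex had 1 and 1 of 6 genes, and the ULK complex 0 and 0 of 4.

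The largest called changes in these lists fell mostly in fat. Atg4a, a protease that processes LC3 and GABARAP proteins, was at 29.9 CPM in AL, 73.9 CPM in DR and 156 CPM in DR-AL. Its log2 fold changes were 1.30 for DR against AL, 2.38 for DR-AL against AL and 1.08 for DR-AL against DR. Atg9a, a membrane protein that brings lipid to the growing autophagosome, was at 55.3 CPM in AL and 129 CPM in DR-AL (1.22, turning to -0.40 with FPKM). Ctsd, a lysosomal protease, was at 1270 CPM in AL, 1960 CPM in DR and 720 CPM in DR-AL, with -0.82 for DR-AL against AL and -1.44 for DR-AL against DR. Ctsb, another lysosomal protease, was at 1480 CPM in AL and 892 CPM in DR-AL (-0.73), and Fam134b was at 16.4 CPM in DR and 38.6 CPM in DR-AL (1.24). In the comparisons given here as log2 fold changes, the other genes named in fat kept their direction with DESeq size factors and with FPKM. Their sizes moved, and the difference of Ctsd between DR and AL was not examined with these scalings. With FPKM, Atg4a was at 0.60, 0.73 and 0.13 in the 3 comparisons and Fam134b at 0.18, the values of 0.13 and 0.18 being under the ratio for a call. Ctsd was at -2.44 and -2.28 and Ctsb at -2.32. These libraries carry the testis and epididymis markers given above, whose part was not tested. Outside fat the rule named Tecpr1, a tether between autophagosome and lysosome, at 7.12, 12.7 and 6.00 CPM in the AL, DR and DR-AL libraries of the liver (0.83 for DR against AL and -1.08 for DR-AL against DR). It also named Optn in the liver, at 122 CPM in AL and 79.6 CPM in DR (-0.61), and Calcoco1, a receptor for the endoplasmic reticulum and Golgi, in the colon, at 39.2 and 25.2 CPM (-0.64).

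**Figure D5:**
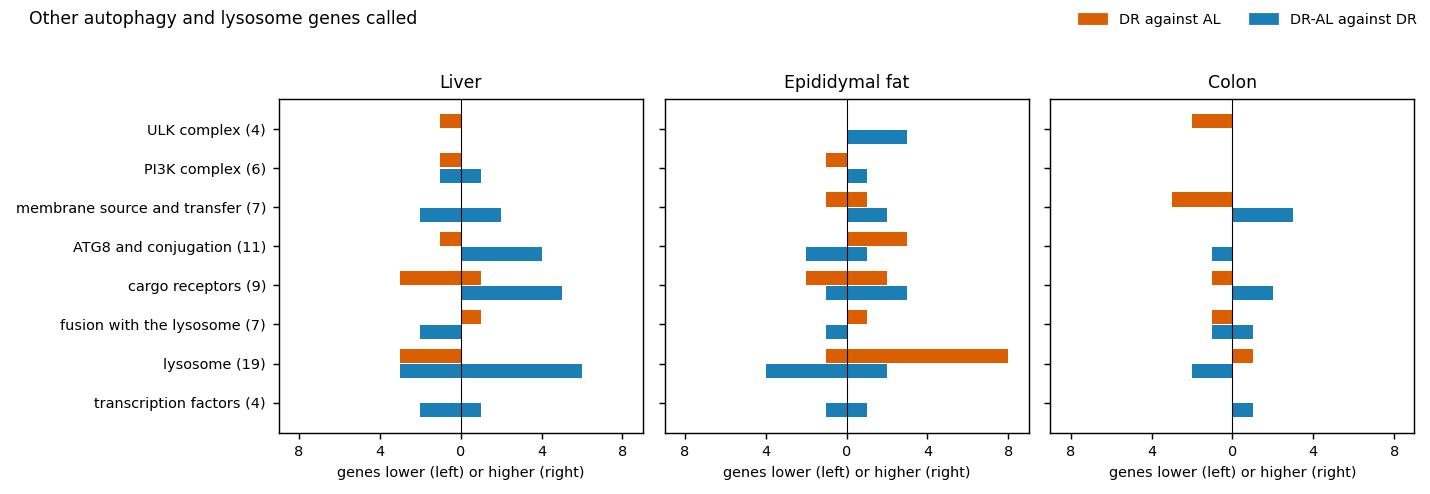
Number of genes called higher (bars to the right) or lower (bars to the left) in each of 8 lists of other autophagy and lysosome genes, with the size of the list in parentheses, for DR against AL (orange) and DR-AL against DR (blue) with totals of named loci. In the liver 5 of 9 cargo receptors were higher and none lower for DR-AL against DR, and the fat bars change direction with other scalings.

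The genes whose pattern was most like that of a member were taken by Pearson's r of the deviations from the tissue mean on the log2 CPM scale. This used the 12 libraries outside fat and 7392 genes, and is a description without a test, since libraries of a diet share their mice and libraries of a tissue share their mean. Map1lc3a was most like Slc27a4 (r = 0.978) and Sepp1 (r = 0.969), Map1lc3b like Lysmd4 (r = 0.961) and Sepp1 (r = 0.957), and Gabarapl1 like Ric8 (r = 0.957) and Camk2g (r = 0.954). Sqstm1 was most like Ech1 (r = 0.959) and Cep120 (r = 0.957), and Bnip3 like Emc7 (r = 0.952) and Mplkip (r = 0.95). Ulk1 was most like Zscan26 (r = 0.988) and the joint locus of Dus3l and Prr22 (r = 0.985), Tfeb like Nfkbia (r = 0.964) and Cyp4f14 (r = 0.959), and Atg7 like Sfxn5 (r = 0.961) and Nfix (r = 0.959). Becn1 was most like the locus of Irak1, Mir5132 and Mir718 (r = 0.959) and Wdr73 (r = 0.942), and Wipi1 like Osbpl2 (r = 0.971) and Pla2g15 (r = 0.938).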

How the data were processed

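RNA-Seq libraries of 5 tissues and 3 diets were used, 1 per tissue and diet, each from RNA of 5 pooled mice and grouped by the sample labels. The authors deposited raw read counts per locus, which are whole numbers without normalization, and FPKM values, scaled by the authors to transcript length and library, with the scaling between libraries not given in the sources used here. Per the methods, reads were trimmed, aligned with regard to strand to mm10 and freed of duplicates; the submitters' processing notes name mm9 and DESeq2. Of 10 members, 1 has a table position that overlaps GENCODE M21 on GRCm38, so coordinates are those of GENCODE. All 30 value columns were used. The deposited counts sum to 21767088 to 40500130 on named loci per library, and 677 loci carry several names.

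The Z test compared square roots of counts over the total of named loci with Poisson variance, for every gene counted at least once in the tissue, with Benjamini-Hochberg adjustment and an absolute log2 ratio of at least 0.32. Log2 fold changes used a pseudocount of 0.5. Effects over tissues were tested with the quasi-likelihood test of edgeR 4.0.16 (TMM, filterByExpr, tissue term) and with DESeq2 1.42.0 in R 4.3.3, after a check on simulated data. Other settings tried were scaling by DESeq size factors or by totals that leave out the 10 most abundant genes, a ratio of 2, an average of 10 counts or more, negative binomial tests, FPKM with pseudocounts of 0.1 and 1, no filter, no tissue term, each tissue left out and, added after seeing the data, the counts without fat and the test between peripheral tissues and brain regions. Transcript length was also examined after seeing the data.

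Members, pathway lists and marker lists were chosen with earlier results of these data known. Pathway genes are named where they had the 2 largest absolute log2 fold changes per comparison and direction among called genes averaging 100 counts or more; Bnip3l, Fam134b, Optn, Ncoa4, Fundc1, Gabarapl2, Atg5, Lamp2, Ctsl, Mcoln1, Cln3, Foxo3, Foxo1 and Mitf in the liver were named after their values were seen, and another called gene is not reported here. The 2 most similar genes per member were taken among genes with an average of 5 CPM or more in each of the 4 tissues outside fat. Tools were Python 3.11.15 with scipy 1.17.1, pandas 2.3.3 and matplotlib 3.10.9.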

Additional observations from a re-analysis of the deposited data

Results flagged for a closer look

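Bnip3, the mitochondrial cargo receptor, was called in opposite directions in different tissues. For DR-AL against AL its log2 fold change was 0.47 in the liver, -0.35 in fat and -0.41 in the colon. For DR-AL against DR it was 0.74 in the liver, 0.44 in fat and -0.59 in the colon, the fat value turning to -0.50 with FPKM. The colon values were -0.29 and -0.32 with FPKM and a pseudocount of 1, both under the log2 ratio of 0.32, so that the opposite calls of liver and colon hold with totals of named loci and DESeq size factors. Tfeb, the transcription factor of autophagy and lysosome genes, was higher in DR-AL than in AL in the hypothalamus (0.34) and lower in the liver (-0.46), the first of which was 0.28 and not called with FPKM and a pseudocount of 1. Single tissues were not tested against each other, since each tissue and diet had 1 library. The edgeR test of the peripheral tissues against the brain regions called neither gene. It gave -0.55 on the log2 scale for Tfeb, DR-AL against AL (adjusted p = 0.804). The differences between single tissues stand out because the single libraries were called in opposite directions.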

How the results depend on the processing

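With totals of named loci, 10, 12 and 17 of the 50 combinations of member and tissue were called for DR against AL, DR-AL against AL and DR-AL against DR. At a ratio of at least 2 the counts were 0, 0 and 0. With a negative binomial test that sets the variation between pools at 0.1 of the level they were 1 (Bnip3 lower in fat), 1 (Sqstm1 higher in fat) and 8, beside 8.92%, 12.6% and 13.0% of all genes. The 8 were Map1lc3a and Sqstm1 higher in the liver and fat, Bnip3 higher in the liver, Gabarapl1 higher in fat, and Ulk1 and Tfeb lower in the liver. With a dispersion estimated from the 3 diets of each tissue as if they were replicates (variation of 0.312 of the level for liver, 0.758 for fat and 0.164 for colon, any diet effect included), they were 0, 0 and 0, beside 0.544%, 1.84% and 0.907%. FPKM, judged by the ratio alone, gave 18 calls for DR against AL with a pseudocount of 0.1 and 18 with a pseudocount of 1, all lower, where totals gave 3 higher and 7 lower. For DR-AL against AL it gave 4 higher and 14 lower, and 3 and 14, where totals gave 6 and 6, and for DR-AL against DR 7 and 11, and 7 and 10, where totals gave 12 and 5. In these 3 comparisons 44.0%, 57.5% and 44.9% of all genes in fat were lower with FPKM and a pseudocount of 1. Without epididymal fat, 6 of 40 combinations were called for DR against AL, beside 14.3% of all genes. For DR-AL against AL 8 of 40 were called, beside 16.4%, and for DR-AL against DR 12 of 40, beside 17.0%.

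Directions reversed in fat with FPKM. For DR against AL, Tfeb was -0.53 with a pseudocount of 0.1 and -0.42 with 1, and Wipi1 -0.50 and -0.47. For DR-AL against AL, Sqstm1 was -1.18 and -1.17, Gabarapl1 -1.24 and -1.23, and Becn1 -1.15 and -1.10. For DR-AL against DR, Map1lc3a was -0.35 and -0.34, Sqstm1 -0.27 and -0.27, Gabarapl1 -0.28 and -0.27, and Bnip3 -0.50 and -0.50. The cause was not tested. With DESeq size factors, 8 of the 10, 9 of the 12 and 15 of the 17 calls remained, among 15, 12 and 17. The calls lost were Tfeb and Wipi1 in fat for DR against AL, and Sqstm1, Gabarapl1 and Becn1 in fat for DR-AL against AL. For DR-AL against DR they were Atg7 in the liver and Bnip3 in fat. Totals without the 10 most abundant genes kept 9, 11 and 17 of the calls made with totals, and a mean of at least 10 counts kept all.

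Over tissues, DESeq2, no filter on low counts, a model without the tissue term, and leaving out 1 tissue at a time gave 0 members, with a range of 0 to 0 for the left-out tissues, as in the edgeR test with all 15 libraries. No paired analysis was possible because each tissue and diet holds 1 library and the labels give no replicate numbers. Depth limits Tfeb most, whose interval for DR-AL against DR in the liver runs from -1.22 to -0.65, while the spread between mice cannot be measured from pooled libraries.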
